A study of Mus musculus with 90 samples.

Results

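The 6 libraries described here are embryoid bodies of mouse J1 embryonic stem cells on day 10 of differentiation, 3 of the line CBX7-mCaPS and 3 of the line labelled CBX7 KO, chosen from the 90 libraries of the series by line, day and culture. J1 cells carry a Y chromosome. The question put to them was how cells with the mCaPS form of CBX7 differ from cells labelled as lacking CBX7, with genes on chromosome 8 counted apart. In CBX7-mCaPS (mCaPS below) a mutated form of a domain of CBX2 was put into CBX7. The KO label names no allele or deleted exon. The labels give no drug treatment, and both lines came from stem cells kept with LIF on mouse feeders, which were taken off before the drops were set. Bodies formed in hanging drops in medium without LIF and were pooled after 4 days into suspension culture. The labels do not give how many clones stand behind a line or whether replicates came from separate cultures, so the spread between libraries may be partly technical.

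CBX7 is a subunit of Polycomb repressive complex 1 (PRC1), which it brings to chromatin by binding methylated histone H3. In embryonic stem cells PRC1 keeps developmental genes such as the Hox clusters and many lineage transcription factors at low levels. CBX2, a paralog more used in committed cells, has a charged region that compacts chromatin and forms condensates (the CaPS domain), and mutating that region weakens both activities. Embryoid bodies leave pluripotency within days and form mixed tissue of all germ layers, often with beating heart muscle.

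The libraries held 44.2, 38.4 and 45.1 M counts in mCaPS and 50.2, 55.9 and 41.3 M in the libraries labelled KO. Rn45s, the ribosomal RNA precursor, took 9.37% to 18.9% of the counts in mCaPS and 3.87% to 21.4% in libraries labelled KO. Levels are CPM, counts relative to the size of the library after scaling by trimmed mean of M values. Differences are log2 fold changes, mCaPS over labelled KO, from the quasi-likelihood test of edgeR with replicate number as a block, and a gene passed at an adjusted p below 0.05 (Benjamini and Hochberg) over all 16219 genes tested. A p under this rule sets the difference against the spread of the within-pair differences, not against the spread between libraries of a line. Both lines held RNA of mesoderm genes. Kdr, a receptor of early mesoderm and endothelium, was at 306, 379 and 311 CPM in mCaPS against 264, 230 and 172 CPM in libraries labelled KO. Pdgfra, a mesoderm receptor that is also in the fibroblast and feeder list below, was at 252, 330 and 298 CPM in mCaPS. It was at 251, 243 and 123 CPM in libraries labelled KO.

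Cbx7 (chr15:79915807-79932646 in mm10, minus strand) was read first as a check of the labels. It had 11.4, 13.3 and 14.1 CPM in mCaPS, against 25.2, 66.5 and 108 CPM in the libraries labelled KO. The counts were therefore higher, not lower, in every library labelled KO, with a log2 fold change of -2.15 ± 0.37 (SE) that did not pass (adjusted p = 0.0526, edgeR quasi-likelihood test). Without the replicate 1 pair the value was -2.65 and passed (adjusted p = 8.13e-05), and with no replicate block it passed too (adjusted p = 0.0415). A count over the whole gene cannot show a small edit that removes the protein, so the label is neither shown nor contradicted at the protein level. Scaled over 36 libraries, Cbx7 was at 9.03, 10.5 and 11.2 CPM in mCaPS and 20, 53.8 and 87.1 CPM in libraries labelled KO, beside 7.56, 34.8 and 35 CPM in WT bodies of day 10. The group is called labelled KO throughout, and each direction given is relative to libraries with these Cbx7 counts. Cbx2 stood at 115, 107 and 120 CPM in mCaPS against 122, 72.9 and 98.5 CPM in libraries labelled KO (log2 fold change 0.25 ± 0.14, SE, adjusted p = 0.311, edgeR). Reads of the inserted CBX2 domain may be counted to Cbx2, so its level in mCaPS is uncertain.

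The library labelled KO replicate 1 stood apart from replicates 2 and 3 of its group in genes of the Y chromosome. Ddx3y, which encodes an RNA helicase, had 31.7, 40.2 and 29.1 CPM in mCaPS, against 30.9, 5.13 and 4.35 CPM in labelled KO replicates 1, 2 and 3. Eif2s3y, a translation initiation factor, had 32.3, 34.5 and 32.8 CPM in mCaPS, against 31.5, 4.4 and 3.21 CPM in labelled KO. Uty, a histone demethylase homolog, had 28.9, 23.1 and 22.6 CPM in mCaPS, against 22.9, 2.37 and 0.695 CPM in labelled KO. In all 3 genes replicate 1 lay within the mCaPS range or within 1 CPM of it and the other labelled KO libraries lay far below it. Kdm5d, a histone demethylase, set replicate 1 apart from mCaPS too, with 0.219, 0.609 and 0.683 CPM in mCaPS against 5.35, 0.0318 and 0 CPM in labelled KO. The same library numbers differed on day 6, where Ddx3y was at 32.6 CPM in labelled KO replicate 1 and at 3.53 and 3.47 CPM in replicates 2 and 3 (scaled over 36 libraries). Across genes, log2 CPM of labelled KO replicate 1 had a Pearson r of 0.97, 0.97 and 0.971 with the mCaPS libraries, and of 0.958 and 0.951 with the other libraries labelled KO (16219 genes, which are not independent replicates). Counts of the gene lists below are therefore also given without the replicate 1 pair.

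**Figure D1:**
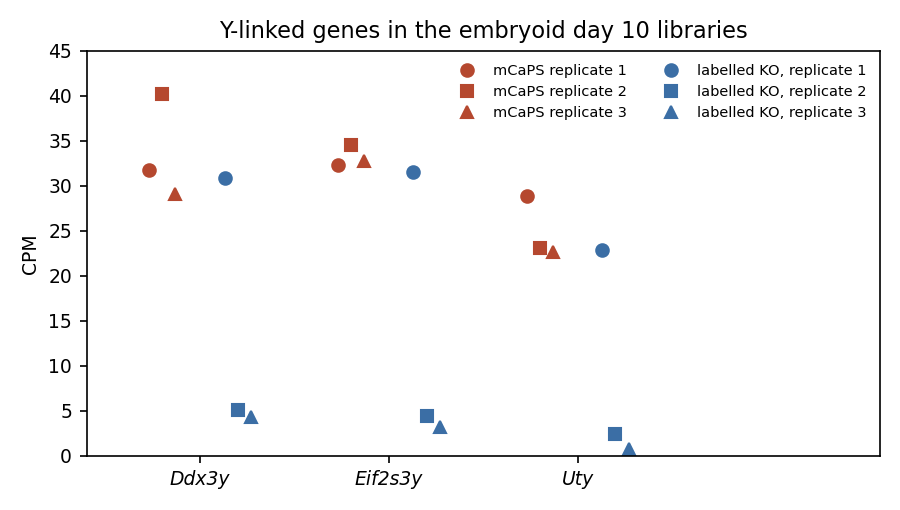
CPM of Ddx3y, Eif2s3y and Uty in each day 10 library, mCaPS in red on the left of each gene and libraries labelled KO in blue on the right, marker shape giving the replicate. Labelled KO replicate 1 sits with the mCaPS libraries (30.9 CPM of Ddx3y) and replicates 2 and 3 sit near the bottom (5.13 and 4.35 CPM).

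Off chromosome 8, 309 of 15364 genes were higher in mCaPS than in labelled KO (2.01%) and 103 were lower (0.67%). The median log2 fold change was 1.32 over the genes called higher and -1.18 over those called lower. All 309 and all 103 moved the same way in each of the 3 pairs, as did 27.7% (higher) and 22.6% (lower) of all genes off chromosome 8. The groups did not overlap in 307 and 94 of them, and in 30.7% of all genes off chromosome 8 in either direction. On chromosome 8 the split was reversed: 1 of 855 genes was higher (0.117%) and 172 were lower (20.1%). Without the replicate 1 pair the counts off chromosome 8 were 2082 higher and 1817 lower (13.4% and 11.7% of 15500 genes), and on chromosome 8 they were 32 and 397. Each list count given below without that pair stands beside these shares of 13.4% and 11.7%. Without the replicate 2 pair no gene passed in either direction (2277 genes at an unadjusted p below 0.05, edgeR), and without the replicate 3 pair only Tnnt2 and Myh6 did, both higher. With no replicate block the lower count off chromosome 8 was 239. Every call below shares this dependence: with either of these pairs left out, the list counts are 0 apart from those 2 genes.

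Heart muscle genes were prominent among those higher in mCaPS. Of 23 measured genes of the cardiac and smooth muscle list, all off chromosome 8, 13 were higher in mCaPS and none were lower, against 2.01% of all genes off chromosome 8. The median log2 fold change over the 23 was 2.44, against 0.04 over all genes off chromosome 8. Tnnt2, the troponin T of heart muscle thin filaments, had 64.6, 105 and 98.0 CPM in mCaPS, against 5.72, 8.84 and 8.60 CPM in libraries labelled KO. Its log2 fold change of 3.53 ± 0.11 (SE) had the smallest adjusted p of any gene off chromosome 8 called higher (0.00277, edgeR quasi-likelihood test). Labelled KO replicate 1 was low like replicates 2 and 3, and the value without that pair was also 3.53. In bulk libraries fewer cells of a type and less RNA per cell cannot be told apart, here and in every result below.

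Myosin genes moved with it. Myh7, the slow and beta-cardiac myosin heavy chain, had 271, 212 and 255 CPM in mCaPS, against 27.6, 28.9 and 22.6 CPM in libraries labelled KO (log2 fold change 3.22 ± 0.15, SE, adjusted p = 0.0151, edgeR). Myh6, the alpha-cardiac heavy chain, had 65.9, 122 and 123 CPM in mCaPS, against 6.27, 11.2 and 4.68 CPM in libraries labelled KO (3.83 ± 0.32, SE, adjusted p = 0.0281, edgeR). The lowest mCaPS library was above the highest library labelled KO in both. The light chains Myl7 of atria and Myl2 of ventricles were higher by log2 fold changes of 4.04 and 4.26. Myl7 had 49.2, 80.3 and 91.5 CPM in mCaPS against 7.16, 3.59 and 3.10 CPM in libraries labelled KO. Myl2 was at low levels, with 2.28, 4.27 and 4.24 CPM in mCaPS against 0.275, 0.159 and 0.107 CPM in libraries labelled KO.

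Of the calcium and thin filament genes, Ryr2, the calcium release channel of heart muscle, had 86.7, 131 and 110 CPM in mCaPS against 23.7, 28.6 and 25.9 CPM in libraries labelled KO (2.05 ± 0.11, SE, adjusted p = 0.0214, edgeR). Tnni1, the slow troponin I of the embryonic heart, had 48.2, 89.3 and 80.2 CPM in mCaPS against 11.5, 14.2 and 12.5 CPM in libraries labelled KO. Both were separated between the groups with no overlap. Members that did not pass include Tagln, a calponin-like gene of smooth muscle, with a log2 fold change of 0.19 and Acta2, smooth muscle actin, with 1.5 (adjusted p = 0.126, edgeR). Nppa, the atrial natriuretic peptide gene, stood at -0.04. The list count was 17 higher and none lower without the replicate 1 pair, and its median was then 2.49. In a fit of all 36 libraries with no replicate block, 4 of 24 were higher and none lower (median 2.39).

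**Figure D2:**
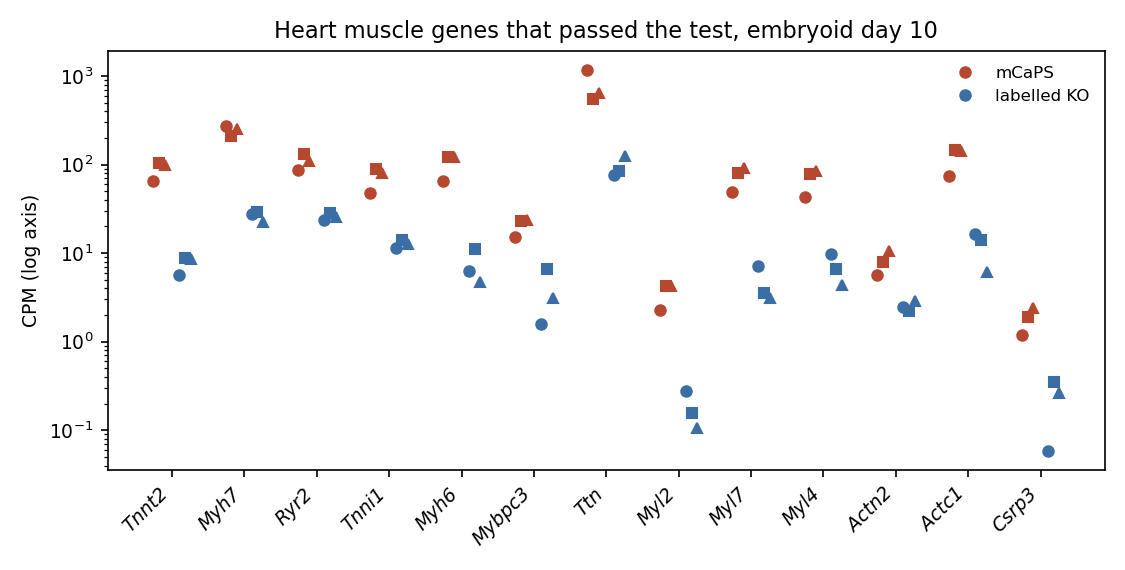
CPM on a log axis of the 13 cardiac and smooth muscle genes that passed, ordered by p, with the 3 mCaPS libraries in red on the left and the 3 libraries labelled KO in blue on the right of each gene. Circles, squares and triangles are replicates 1, 2 and 3, and for each gene all red points lie above all blue points.

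Promoters are shown for 4 of these genes because the 13 moved together, and these 4 were picked because a motif is present. Each is the 250 bases before the RefSeq start site in GRCm38.p6, the same assembly as mm10, on the strand of the gene. Capitals mark the letters CATTCC (M-CAT, the element bound by TEAD factors), AGATAA (bound by GATA factors) and the CArG box (bound by SRF), on either strand. They are from Tnnt2 (chr1:135836084-135836333, plus), Myh7 (chr14:54994627-54994876, minus), Myl7 (chr11:5898783-5899032, minus) and Actc1, the cardiac alpha-actin gene (chr2:114052876-114053125, minus).
Tnnt2: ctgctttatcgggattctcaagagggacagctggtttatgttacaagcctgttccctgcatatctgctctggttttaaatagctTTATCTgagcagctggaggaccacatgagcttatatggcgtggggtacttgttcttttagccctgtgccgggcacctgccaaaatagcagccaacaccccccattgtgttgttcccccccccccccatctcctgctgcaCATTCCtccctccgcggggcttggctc
Myh7: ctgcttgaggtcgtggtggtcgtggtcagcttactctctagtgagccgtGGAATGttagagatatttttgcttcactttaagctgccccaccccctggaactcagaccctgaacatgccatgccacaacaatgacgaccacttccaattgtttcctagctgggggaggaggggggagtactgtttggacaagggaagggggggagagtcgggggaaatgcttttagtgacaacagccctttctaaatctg
Myl7: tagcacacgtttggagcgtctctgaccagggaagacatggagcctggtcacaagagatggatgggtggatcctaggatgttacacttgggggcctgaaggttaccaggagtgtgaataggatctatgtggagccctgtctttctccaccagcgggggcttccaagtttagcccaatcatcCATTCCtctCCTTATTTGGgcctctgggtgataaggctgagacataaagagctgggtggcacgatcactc
Actc1: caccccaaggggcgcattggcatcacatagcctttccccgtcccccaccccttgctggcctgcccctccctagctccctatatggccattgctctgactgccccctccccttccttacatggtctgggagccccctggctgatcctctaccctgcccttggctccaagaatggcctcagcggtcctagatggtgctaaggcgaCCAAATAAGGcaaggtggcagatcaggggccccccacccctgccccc
CATTCC was in the window of 8 of 22 genes of the list with a promoter (36.4%), of 4 of the 13 that passed (30.8%), and of 13.1% of the 12378 tested genes with a promoter. AGATAA was in 5 of the 22 (22.7%), in 2 of the 13 that passed (15.4%) and in 7.56% of tested genes. The CArG box was in 3 of the 22 (13.6%), in 2 of the 13 that passed (15.4%) and in 1.48% of tested genes. None of these motifs overlaps another in the 4 windows shown. Tnnt2 and Myh7 each have a further RefSeq start site, whose window holds none of these motifs and is not shown. A gene with more than 1 start site counted once, if any of its windows held the motif. A match of letters is a description of the sequence only.

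Among transcription factors of the heart, 3 of 17 measured off chromosome 8 were higher in mCaPS and none were lower, with a median of 0.64. Mef2c, a MADS-box activator of muscle genes, had 119, 136 and 133 CPM in mCaPS against 33.5, 48.7 and 29.6 CPM in libraries labelled KO (1.82 ± 0.15, SE, adjusted p = 0.0235, edgeR). Myocd, the SRF coactivator myocardin, had 73.9, 90.0 and 92.4 CPM in mCaPS against 15.3, 12.1 and 6.76 CPM in libraries labelled KO (2.97 ± 0.31, SE). Nkx2-5, a homeobox factor of heart progenitors, had 6.59, 7.87 and 12.2 CPM in mCaPS against 0.885, 0.954 and 1.98 CPM in libraries labelled KO (2.85 ± 0.24, SE). All 3 were separated between the groups. Earlier mesoderm factors did not pass: Gata4 was at -0.05 (adjusted p = 0.943) and Hand1 at 0.22 (adjusted p = 0.867). The count was 12 of 17 higher and none lower without the replicate 1 pair.

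Other mesoderm derivatives had few calls. Of 17 endothelial genes off chromosome 8, 2 were higher in mCaPS and none lower, with a median of 0.60. Flt4, the VEGF receptor of lymphatic and early vessel cells, had 58.5, 48.4 and 52.8 CPM in mCaPS against 20.9, 29.6 and 26.7 CPM in libraries labelled KO (1.06 ± 0.17, SE). Sox18, an endothelial transcription factor, had 12.5, 12.8 and 15.6 CPM in mCaPS against 2.64, 5.40 and 6.57 CPM in libraries labelled KO (1.57 ± 0.27, SE). Of 16 blood genes, 1 was lower. It was Hbb-y, the embryonic beta globin, at 0.482, 13.9 and 5.39 CPM in mCaPS against 7.73, 73.1 and 56.8 CPM in libraries labelled KO, where labelled KO replicate 1 lay within the mCaPS range. Hbb-y differed by -3.17 ± 0.33 (SE) within pairs and did not pass with no replicate block (adjusted p = 0.186). Of 22 matrix genes 2 were higher, the collagens Col6a2 (1.54) and Col6a1 (0.83). None of 12 fibroblast and feeder genes passed, and their median was 0.50. The summed level of that list was 643 to 1245 CPM in mCaPS and 477 to 1032 CPM in libraries labelled KO, and its part in the muscle and matrix results was not tested. In the epicardium and mesothelium list 1 of 15 was higher, Upk1b (2.78). When the replicate 1 pair was left out, the endothelial list had 5 higher and 2 lower, matrix 5 and 1, blood 0 and 3, epicardium 5 and 1, and fibroblast and feeder genes 1 and 0. In that fit 13.4% of all genes off chromosome 8 were higher and 11.7% lower, and the lower counts of 2 of 17 endothelial and 3 of 16 blood genes lie near that share.

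Genes of pluripotency and of the primitive streak lay on the other side. Of 25 naive pluripotency genes off chromosome 8, 3 were lower in mCaPS and none were higher, with a median of -2.21, and 24 of the 25 had a negative log2 fold change. Tdgf1, the Nodal co-receptor Cripto, had 28.6, 23.0 and 23.4 CPM in mCaPS against 77.4, 91.1 and 135 CPM in libraries labelled KO (-1.98 ± 0.22, SE, adjusted p = 0.033, edgeR). Lefty2, a Nodal antagonist, had 3.04, 3.83 and 4.88 CPM in mCaPS against 16.9, 53 and 112 CPM in libraries labelled KO (-3.62 ± 0.43, SE). Prdm14, a repressor that holds the naive state, had 0.219, 0.559 and 0.610 CPM in mCaPS against 1.495, 4.71 and 7.45 CPM in libraries labelled KO (-3.17 ± 0.33, SE). In all 3 genes the groups did not overlap and labelled KO replicate 1 was the closest to mCaPS.

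Esrrb and Pou5f1 are given as examples of members that did not pass, chosen after their values were seen. Esrrb, an orphan receptor of naive cells, had 4.07, 2.995 and 2.85 CPM in mCaPS against 4.31, 53.4 and 113 CPM in libraries labelled KO, and did not pass (adjusted p = 0.165). Pou5f1, which encodes OCT4, had 63.5, 57.6 and 53.2 CPM in mCaPS against 121, 231 and 443 CPM in libraries labelled KO (-2 ± 0.42, SE, adjusted p = 0.0742, edgeR). The mean log2(CPM + 1) of the naive list was 3.21, 3.23 and 3.15 in mCaPS, and 3.63, 5.54 and 6.19 in labelled KO replicates 1, 2 and 3. Replicate 1 was thus close to mCaPS in this list, as it was in Y-linked genes. Leaving out the replicate 1 pair gave 22 lower naive genes and none higher, with a median of -3.28. Of 12 germline genes none passed, and 10 of 15 were lower and 1 higher without that pair. Without the replicate 2 pair or the replicate 3 pair no pluripotency gene passed.

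Of 13 formative genes 2 were lower. Dnmt3b, a DNA methyltransferase of the epiblast, had 209, 196 and 203 CPM in mCaPS against 324, 404 and 502 CPM in libraries labelled KO (-0.99 ± 0.15, SE, adjusted p = 0.0389, edgeR). The other was Zic2 (-0.59 ± 0.10, SE), whose groups overlap. Without the replicate 1 pair 1 formative gene was higher and 8 lower. Of 17 streak and nascent mesoderm genes 3 were lower. Mixl1, a homeobox factor of the streak, had 1.49, 1.17 and 1.07 CPM in mCaPS against 15.4, 12.4 and 28.6 CPM in libraries labelled KO (-3.82 ± 0.35, SE, adjusted p = 0.0281, edgeR). Eomes, a T-box factor of the streak, had 16.8, 13.8 and 10.4 CPM in mCaPS against 63.5, 39.0 and 77.4 CPM in libraries labelled KO (-2.09 ± 0.29, SE), and did not pass without the replicate 1 pair (adjusted p = 0.0619). Nodal, the ligand, was lower by -2.13 ± 0.33 (SE). The other members did not follow in step. T, or brachyury, had 97.4, 56.1 and 72.6 CPM in mCaPS against 142, 30.2 and 41.7 CPM in libraries labelled KO and did not pass (adjusted p = 0.473). The median of the streak list was -1.47 with all pairs and 0.25 without the replicate 1 pair, when 6 were higher and 4 lower, so its direction rests on that pair. Its size also rests on genes at low levels. With all pairs and at least 1 CPM in 3 libraries, the median was -0.17 over 14 genes, with 3 lower and 0 higher. Tfap2c, a factor of trophoblast and germ cells, was lower by -1.79 ± 0.20 (SE), as 1 of 6 trophoblast genes. None of 19 yolk sac genes passed (median -0.19). Cubn, the vitamin receptor of visceral endoderm, had 6.74, 6.68 and 6.46 CPM in mCaPS against 10.5, 925 and 120 CPM in labelled KO replicates 1, 2 and 3, and did not pass (adjusted p = 0.167, edgeR). The counts without the replicate 1 pair were 1 higher and 3 lower of 8 trophoblast genes, and 4 and 1 of 19 yolk sac genes.

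**Figure D3:**
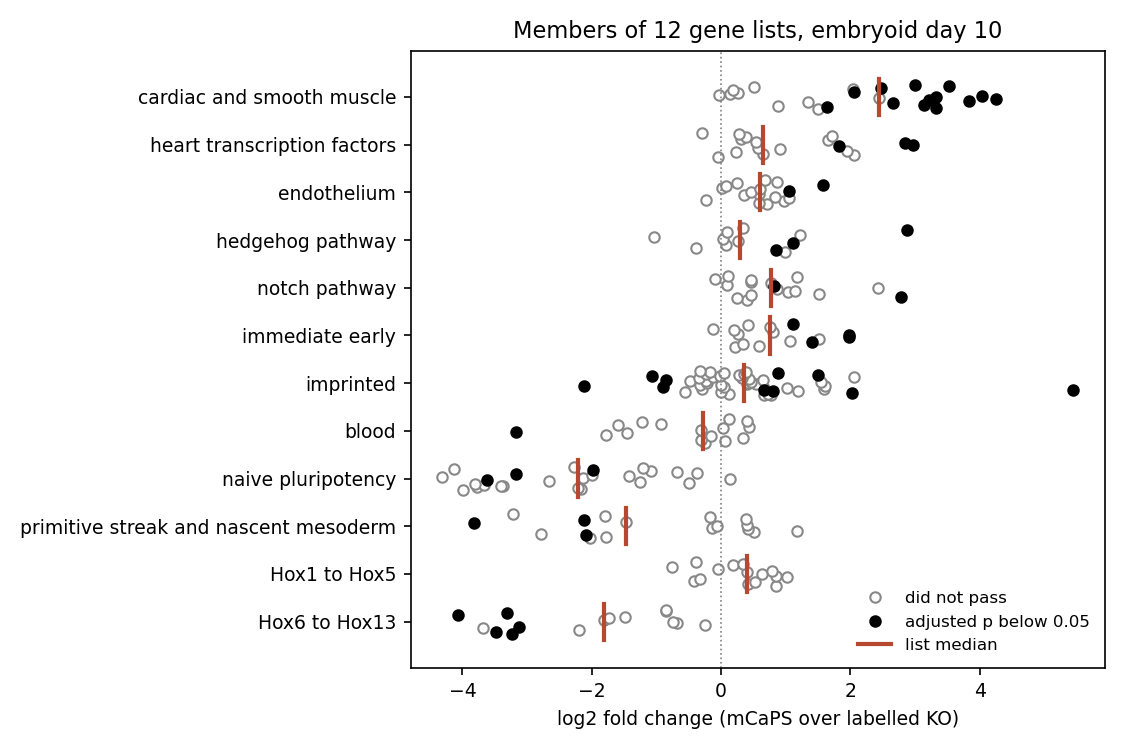
Log2 fold change of each measured member off chromosome 8 in 12 gene lists, mCaPS over labelled KO, with filled points at an adjusted p below 0.05 and a red bar at the list median. The cardiac and smooth muscle list has its median at 2.44 and 13 filled points, the naive pluripotency list has its median at -2.21 and 3 filled points, and Hox6 to Hox13 has its median at -1.81 and 5 filled points.

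Hox genes, the classic targets of Polycomb repression, were read in a list of the later and a list of the earlier genes of the clusters. Of 15 measured genes of Hox6 to Hox13, 5 were lower in mCaPS, none were higher, and all 15 had a negative log2 fold change (median -1.81). A gene near 0 CPM in mCaPS can enter the test through the libraries labelled KO alone, so the shared sign partly reflects the filter. With at least 1 CPM in 3 libraries, only 5 genes were tested, 1 was lower and the median was -0.86. With no filter on low counts, 8 of 24 were lower and 0 higher (median -2.97). Hoxd13, the last gene of its cluster, had 0.0876, 0.559 and 0.585 CPM in mCaPS against 1.141, 4.67 and 5.93 CPM in libraries labelled KO (-3.31 ± 0.33, SE, adjusted p = 0.0303, edgeR). Hoxa9 had 0.0438, 0.305 and 0.220 CPM in mCaPS against 0.393, 3.12 and 1.66 CPM in libraries labelled KO (-3.12 ± 0.42, SE). Hoxd10 was lower by -4.07 and Hoxa10 by -3.23. Hoxa11, outside the naming rule and named to complete the count, was the fifth. Labelled KO replicate 1 was the lowest of its group in each gene given in full, and the levels are a few CPM at most. Hoxd13, Hoxa9, Hoxd10 and Hoxa10 did not pass with no replicate block (adjusted p = 0.0611, 0.079, 0.0671 and 0.187). None of 15 genes of Hox1 to Hox5 passed, and their median was 0.39. When the replicate 1 pair was left out, 13 of 20 Hox6 to Hox13 genes were lower and none higher, and 7 of 15 Hox1 to Hox5 genes were higher and none lower. The difference between these lists was not tested.

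By the naming rule given under processing, the 10 largest log2 fold changes off chromosome 8 were those of Vgll2, Grb10, Pyy, Six3, Myl2, Foxd4, Myl7, Pax1, Myh6 and Xirp1. Vgll2, a TEAD cofactor of skeletal muscle and head mesenchyme, had 8.10, 4.09 and 4.98 CPM in mCaPS against 0.236, 0.0636 and 0.0534 CPM in libraries labelled KO (5.68 ± 0.41, SE, adjusted p = 0.0228, edgeR). Six3, a homeobox factor of the forebrain and eye, had 16.0, 6.45 and 9.25 CPM in mCaPS against 1.85, 0.191 and 0.214 CPM in libraries labelled KO (4.37 ± 0.55, SE). Pax1, a paired-box factor of sclerotome and pharyngeal pouches, had 12.5, 5.18 and 10.7 CPM in mCaPS against 0.472, 0.668 and 0.588 CPM in libraries labelled KO (3.93 ± 0.43, SE). Others were the gut peptide gene Pyy (4.62), the forkhead gene Foxd4 (4.08) and Xirp1, which encodes an actin-binding protein of striated muscle (3.67). Six3 and Foxd4 did not pass with no replicate block (adjusted p = 0.0589 and 0.0636).

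Of 46 further developmental transcription factors 8 were higher and 1 lower (median 1.21), without the replicate 1 pair 14 and 5 of 45. Besides Six3 and Pax1, the higher ones included Pax9 (2.48 ± 0.33, SE), a factor of pharyngeal endoderm, and Prrx2 (1.25 ± 0.16, SE), a factor of mesenchyme. Prrx2 had 41.5, 44.7 and 48.4 CPM in mCaPS against 22.6, 17.2 and 17.2 CPM in libraries labelled KO. Of neural progenitor genes, Sox9, also a factor of cartilage and valves, had 64.6, 39.7 and 45.8 CPM in mCaPS against 24.2, 18.8 and 17.6 CPM in libraries labelled KO (1.29 ± 0.12, SE). Nkx2-2 (2.38) and Sox21 (1.6) were higher too. Of 12 neural crest genes 1 was higher, Snai2 (1.17), and none of 19 neuron genes off chromosome 8 passed. Without the replicate 1 pair 1 of 12 neural crest genes was higher and 2 lower, and 2 of 19 neuron genes were higher and 3 lower. In that fit 13.4% of all genes off chromosome 8 were higher and 11.7% lower. The neural crest and neuron counts lie near those shares, as do the 5 lower of 45 developmental factors.

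Imprinted genes are read from 1 parental copy. Of 47 measured, 6 were higher and 4 lower (median 0.35), without the replicate 1 pair 18 and 8. Grb10 (chr11:11930499-12037420, minus strand), an adaptor that restrains insulin and growth factor signalling and is mostly read from the maternal copy in such tissue, had 914, 1051 and 1125 CPM in mCaPS, against 11.7, 27.8 and 39.2 CPM in libraries labelled KO. Its log2 fold change was 5.45 ± 0.34 (SE, adjusted p = 0.0228, edgeR), and 5.03 without the replicate 1 pair. Labelled KO replicate 1 was the lowest of all 6 libraries here. Cdkn1c, the CDK inhibitor p57, had 361, 429 and 606 CPM in mCaPS against 67.9, 112 and 183 CPM in libraries labelled KO (2.02 ± 0.15, SE). Kcnq1ot1, the long noncoding RNA of the cluster that holds Cdkn1c, had 109, 35.7 and 26.7 CPM in mCaPS against 310, 164 and 172 CPM in libraries labelled KO (-2.13 ± 0.24, SE), and did not pass with no replicate block (adjusted p = 0.0891). Kcnq1ot1 lies antisense in Kcnq1, and whether the counting used strand is not given in the sources used here, so its counts may include reads of that gene. Peg10, a retrotransposon-derived placental gene, had 1776, 2270 and 1950 CPM in mCaPS against 3036, 4534 and 3397 CPM in libraries labelled KO (-0.86 ± 0.11, SE).

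Grb10 and Tnnt2 were also set beside WT bodies of the same day. Grb10 was at 726, 836 and 892 CPM in mCaPS and 9.31, 22.5 and 31.6 CPM in libraries labelled KO, beside 1230, 1030 and 1070 CPM in WT (all scaled over 36 libraries, so the values differ slightly from those above). The libraries labelled KO were far below both other lines. For Tnnt2 the same scaling gave 51.3, 83.8 and 77.7 CPM in mCaPS and 4.54, 7.15 and 6.94 CPM in libraries labelled KO, beside 16.5, 103 and 35.8 CPM in WT. The WT libraries spread widely in Tnnt2 and all lay above every library labelled KO.

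Among signalling pathways, changes were few. In the hedgehog list 3 of 12 were higher and none lower: Shh, the ligand, had 29.7, 18.9 and 20.5 CPM in mCaPS against 6.55, 3.34 and 1.18 CPM in libraries labelled KO (2.87 ± 0.42, SE), Gli1, a target and effector, was higher by 1.12 and Cdon, a co-receptor, by 0.84. Shh was also the 1 gene of 14 in the cilia and node list to pass. In the Notch list 2 of 17 were higher and none lower, the ligands Dll4 (2.79 ± 0.41, SE) and Jag1 (0.82 ± 0.12, SE). Of 31 WNT genes 1 was higher, the receptor Fzd2 (1.10), and 2 were lower, the receptor Fzd10 (-1.85) and the ligand Wnt8a (-1.94). Fzd10 had 6.83, 10.2 and 9.95 CPM in mCaPS against 27.4, 35.0 and 33.8 CPM in libraries labelled KO. Of 22 BMP genes 1 was lower, the activin antagonist Fst (-1.12). None of 18 FGF genes and none of 17 retinoic acid response genes passed. Without the replicate 1 pair these lists had 5 higher and 0 lower (hedgehog), 8 and 1 (cilia), 12 and 0 (Notch), 7 and 5 (WNT), 9 and 1 (BMP), 3 and 6 (FGF) and 4 and 0 (retinoic acid).

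Immediate early genes, which answer to growth factors and to handling within minutes, had 4 of 15 higher and none lower. Egr1 had 75.04, 80.2 and 136 CPM in mCaPS against 35.7, 30.0 and 41.4 CPM in libraries labelled KO (1.40 ± 0.15, SE, adjusted p = 0.032, edgeR), and Fos (1.97), Fosb (1.98) and Zfp36 (1.11) followed it. Of 20 hypoxia and glycolysis genes 1 was higher, the carbonic anhydrase Car9 (2.17), though all 20 had a positive log2 fold change (median 0.65). The mean log2(CPM + 1) of that list was 7.42, 7.49 and 7.48 in mCaPS and 7.49, 6.48 and 6.40 in labelled KO replicates 1, 2 and 3, so replicate 1 was level with mCaPS. In the other pairs alone 17 of the 20 were higher and none lower. Of 17 interferon-induced genes 2 were lower, Irf1 (-1.25) and Oasl2 (-3.46). Among CDK inhibitors and p53 targets 1 of 18 was higher, Cdkn1c, and 2 were lower, Ccng1 (-1.03) and Phlda3 (-0.90). Of 21 cell cycle genes off chromosome 8, Ccnd2, the cyclin D2 gene, was higher (0.88) and Pcna, the replication clamp, was lower (-0.72). Without the replicate 1 pair the counts were 8 higher and 0 lower (immediate early), 0 and 5 (interferon), 2 and 13 (p53 and CDK inhibitors) and 2 and 5 (cell cycle). In that fit 13.4% of all genes off chromosome 8 were higher and 11.7% lower. The 2 higher of 18 p53 and CDK inhibitor genes and the 2 higher of 21 cell cycle genes lie near that share.

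No Polycomb gene passed with all pairs: none of 25 PRC1 subunits (median 0.10) and none of 12 PRC2 subunits (median -0.14) did. Their values lay between -2.15 (Cbx7) and 0.78 (Bcorl1) for PRC1 and between -0.80 (Epop) and 0.43 (Phf1) for PRC2. With that of replicate 1 left out, 5 PRC1 genes were higher and 5 lower, and 2 PRC2 genes were higher and 5 lower. None of the measured genes for ribosomal proteins (22), replication-dependent histones (21), epithelium (15) or the cleavage stage (1) passed off chromosome 8. Without that pair these lists had 4 higher and 0 lower (ribosomal proteins), 10 and 1 (histones), 5 and 2 (epithelium) and 0 and 1 (cleavage stage). In that fit 13.4% of all genes off chromosome 8 were higher and 11.7% lower.

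Chromosome 8 differed as a whole. The median log2 fold change over its 855 genes was -0.51 (quartiles -0.76 and -0.22), against 0.04 (quartiles -0.22 and 0.34) over all other genes, and 740 of the 855 (86.5%) were below 0. The 3 pairs gave chromosome 8 medians of -0.51, -0.51 and -0.52, and medians of 0.02, 0.04 and 0.05 elsewhere. Labelled KO replicate 1 thus shows the chromosome 8 difference as replicates 2 and 3 do. In 20 Mb windows along the chromosome the medians ran between -0.64 and -0.36, so no window was without it. Every other autosome and the X had a median between -0.02 and 0.07. The 5 measured Y genes had a median of 1.95, with the libraries split as given above.

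**Figure D4:**
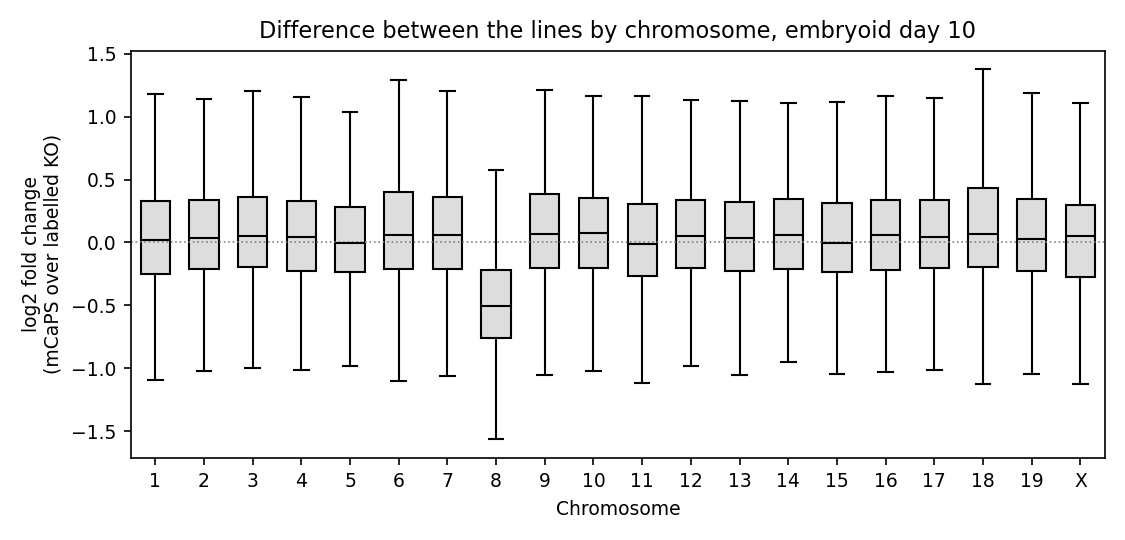
Log2 fold change, mCaPS over labelled KO, of all genes tested on each chromosome, with boxes at the quartiles, a line at the median and whiskers to 1.5 times the box. Chromosome 8 has its median at -0.51 and the other chromosomes shown have theirs between -0.02 and 0.07.

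Most of the 172 lower chromosome 8 genes changed by a small and similar amount: 145 were above -1 on the log2 scale and 27 below it, and their median was -0.79. The groups did not overlap in 170 of them, and 53.5% of all 855 genes had non-overlapping groups with mCaPS lower. Of all 855, 64.9% were lower in each of the 3 pairs. Mcm5, a subunit of the replicative helicase, had 204, 209 and 215 CPM in mCaPS against 411, 404 and 483 CPM in libraries labelled KO (-1.04 ± 0.09, SE, adjusted p = 0.0259, edgeR). Tubb3, the neuronal beta tubulin, had 12.1, 8.10 and 12.5 CPM in mCaPS against 20.02, 19.3 and 34.3 CPM in libraries labelled KO (-1.14 ± 0.19, SE) and did not pass with no replicate block (adjusted p = 0.0552). Trim67, a ubiquitin ligase of the nervous system, had the lowest fold change, with 2.93, 2.84 and 3.42 CPM in mCaPS against 14.1, 15.1 and 21.8 CPM in libraries labelled KO (-2.45 ± 0.19, SE, adjusted p = 0.0235, edgeR). Tex15, a gene of meiosis and transposon silencing in germ cells, had 10.1, 8.05 and 7.22 CPM in mCaPS against 39.1, 41.3 and 26.8 CPM in libraries labelled KO (-2.07 ± 0.15, SE). Psmb10, an immunoproteasome subunit (-1.77), the iodide transporter gene Slc5a5 (-1.64) and Tdrp (-1.60) complete the 5 lowest by the naming rule.

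Against this shift, Crnde was the single chromosome 8 gene called higher. This long noncoding RNA gene (chr8:92326031-92356120, minus strand) had 14.9, 10.4 and 11.9 CPM in mCaPS against 7.79, 5.13 and 4.52 CPM in libraries labelled KO (1.12 ± 0.19, SE, adjusted p = 0.0474, edgeR), and did not pass with no replicate block (adjusted p = 0.0556). The next 4 by p did not pass. Mylk3, the cardiac myosin light chain kinase, had 5.69, 6.04 and 6.34 CPM in mCaPS against 1.32, 2.69 and 2.40 CPM in libraries labelled KO (1.55 ± 0.29, SE, adjusted p = 0.0541, edgeR). Sorbs2, a sarcomere adaptor (1.00), the Iroquois factor Irx5 (1.31) and the corepressor gene Cbfa2t3 (0.75) had adjusted p values of 0.0603, 0.0616 and 0.0643. All 4 had non-overlapping groups, and all 4 passed without the replicate 1 pair.

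The share of counts outside Rn45s that came from chromosome 8 genes was 4.35%, 4.39% and 4.39% in mCaPS, against 6.08%, 6.72% and 6.6% in libraries labelled KO. WT libraries of the same day had 5.83%, 4.8% and 5.43%, between the other lines. On day 0 the shares were 4.4%, 4.45% and 4.95% in mCaPS against 6.09%, 6.25% and 6.23% in libraries labelled KO, and on day 6 they were 4.47%, 4.42% and 4.44% against 6.21%, 6.69% and 6.69%. The lines were apart before differentiation and on each day. Relative to WT on day 10, chromosome 8 had a median log2 ratio of -0.24 in mCaPS and 0.28 in labelled KO, which share the WT libraries. Copy number was not measured here, and the CBX7 forms and the cell lines that carry them cannot be told apart in this design.

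**Figure D5:**
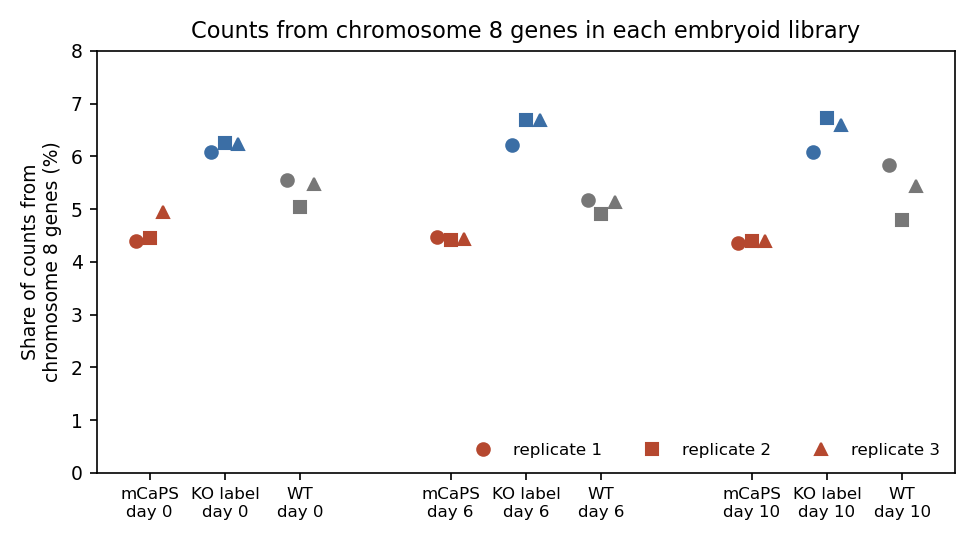
Percent of counts outside Rn45s from chromosome 8 genes in each embryoid library on days 0, 6 and 10, for mCaPS, libraries labelled KO and WT from left to right, marker shape giving the replicate. On day 10 mCaPS libraries sit at 4.35% to 4.39%, libraries labelled KO at 6.08% to 6.72% and WT between them.

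The same lines were also compared in other libraries. On embryoid day 6, where 489 of 15966 genes were higher (3.06%) and 596 lower (3.73%) in mCaPS than in labelled KO, 171 of the 172 lower chromosome 8 genes had the same sign (99.4%, against 93.5% of all chromosome 8 genes) and 141 passed. In neural progenitor cultures on day 8, where 818 of 15790 were higher (5.18%) and 1032 lower (6.54%), 161 had the same sign (93.6%, against 84.0% of all chromosome 8 genes) and 63 passed. Off chromosome 8, of the 309 higher genes, 285 were measured on day 6, 158 had the same sign (55.4%, against 53.5% of all genes off chromosome 8), 24 were called higher and 8 lower. In neural progenitors on day 8, 189 of 297 had the same sign (63.6%, against 53.6% of all), 72 were called higher and 36 lower. Of the 103 lower genes, 59 of 99 had the same sign on day 6 (59.6%, against 46.5% of all), 10 were called lower and 2 higher. In neural progenitors on day 8, 42 of 92 had the same sign (45.7%, against 46.4% of all), 6 were called lower and 6 higher. On day 6 of that culture 12.2% of all genes were higher and 11.1% lower. There 215 of 296 higher genes had the same sign (72.6%, against 52.1% of all), 121 were called higher and 31 lower. Of the lower genes 71 of 98 had it (72.4%, against 47.9%), 25 were called lower and 9 higher. On its day 0 the same-sign shares were 55.5% (higher genes, against 54.5%) and 33.7% (lower genes, against 45.5%). On embryoid day 0 no gene of 15797 passed in either direction (0%, edgeR), and 1095 were at an unadjusted p below 0.05.

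Grb10 and Kcnq1ot1 were among those that held on other days. The log2 fold change of Grb10 was 1.56 on embryoid day 6 (adjusted p = 0.0134, edgeR) and 5.70 in day 8 neural progenitors (adjusted p = 0.00257, edgeR). Kcnq1ot1 was at -3.21 and -2.31 in the same comparisons (adjusted p = 0.000216 and 0.00121, edgeR). On embryoid day 6 no cardiac and smooth muscle gene of 18 was higher and 1 was lower, and of 14 heart transcription factors none were higher and 2 were lower. Myh7 was at -0.49 (adjusted p = 0.532, edgeR), Mef2c at -1.08 (adjusted p = 0.0967) and Nkx2-5 at -0.71 (adjusted p = 0.297), and Tnnt2 was too low there to test. Neural progenitor cultures did hold higher heart genes. On day 6 of that culture, where 12.2% of 15964 genes were higher and 11.1% lower, 7 of 21 cardiac and smooth muscle genes were higher and 1 lower, and 11 of 17 heart transcription factors were higher and none lower. On day 8 the counts were 6 and 0 of 21, and 7 and 0 of 17. The log2 fold change of Tnni1 was 5.08 (day 6) and 3.74 (day 8; adjusted p = 0.000781 and 0.00507, edgeR), Tnnt2 at 3.92 and 2.19 (adjusted p = 0.0124 and 0.0381), Myl7 at 3.86 and 3.75 (adjusted p = 0.00192 and 0.00455) and Mef2c at 3.41 and 2.997 (adjusted p = 0.00443 and 0.00549). Ryr2 passed on day 6 (2.33, adjusted p = 0.00218) and not on day 8 (0.91, adjusted p = 0.0712). Myh7, Myh6 and Nkx2-5 passed on neither day, with Myh7 at -0.82 and -0.01. Hbb-y, lower in embryoid bodies of day 10, was higher there by 5.65 and 3.70 (adjusted p = 0.0155 and 0.0386).

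The change of the mCaPS to labelled KO difference between day 6 and day 10 was tested over 12 libraries. It passed for 306 of 17035 genes (1.8%), 174 upward and 132 downward, of which 291 were off chromosome 8 and 15 on it. Of the day 10 calls, 159 off chromosome 8 and 10 on chromosome 8 passed this test. It reuses the day 10 libraries that gave those calls, which favours such an overlap, so these counts are no separate support for them. Tnnt2 had the value 3.78 (adjusted p = 0.00229, edgeR), Ryr2 2.25 (adjusted p = 0.00905), Myh7 3.75 (adjusted p = 0.0182) and Mef2c 2.88 (adjusted p = 0.0165), so these differences were larger on day 10 than on day 6. Mixl1 (-3.11), Prdm14 (-2.88) and Tdgf1 (-2.17) changed the other way. The count was 3604 without replicate 1, 1 without replicate 2 and 0 without replicate 3 (0.05 threshold, edgeR quasi-likelihood test).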

How the data were processed

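Embryoid body RNA, with ribosomal RNA removed, was sequenced with a directional kit per the labels' protocols. The values used are raw counts per gene deposited by the authors, with mm10 coordinates per the file headers. The submitters' processing notes name STAR 2.7.0 and featureCounts 1.6.3, besides cutadapt 1.14, HOMER 4.10.4 and edgeR. Which of them made the counts, and whether strand was used, is not given in the sources used here. Counts of 1 to 20 were even in 76.6% to 84.6% of cases, so each fragment may have been counted more than once. Total counts per library (38.4 to 55.9 M) give the depth.

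edgeR 4.0.16 (R 4.3.3) was run on the 6 libraries: filterByExpr, TMM scaling, robust quasi-likelihood fit, replicate number as block (2 residual degrees of freedom, common dispersion 0.0563), two-sided F test. SE is the unshrunk log2 ratio over the square root of F. Pairing by replicate number was set by the comparison, and the labels name no culture or batch shared by same-numbered libraries. Deviations from the line mean correlated by 0.14, 0.21 and 0.13 in same-numbered libraries and by -0.17 to 0.03 in other pairs. These values are weak and, because deviations were centred within each line, tied to each other. They cannot show whether the numbers are true pairs. DESeq2 1.42.0 was an alternative. The code of the fits was run on simulated counts, with a lower dispersion than these data and no library set apart from its group. That run does not show how the fits perform on these 6 libraries. Left out were 26 gene names turned into dates. Another 9 columns matched no sample and were not used here. No library pair held identical counts.

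The comparison, its members and the 39 gene lists were chosen with earlier results of these data known. Genes named are Cbx7 and Cbx2, the 10 highest and 10 lowest fold changes off chromosome 8 and 5 of each on it among genes that passed, kept direction in all pairs and averaged at least 2 CPM in the higher line, and up to 4 members per list by p. Where fewer than 5 passed, the 5 smallest p were taken. Gene models and small RNAs (Gm, Rik, Mir, Snor, LOC and ps names) were left out of the naming. Any other gene was named after its values were seen. The counts of the neural progenitor list are not reported here. Promoters are from RefSeq.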

Additional observations from a re-analysis of the deposited data

Results flagged for a closer look

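For 36 of the named genes the difference between mCaPS and labelled KO itself changed between embryoid days 6 and 10 (interaction test over 12 libraries, edgeR quasi-likelihood, adjusted p below 0.05). Most of these genes were named for their day 10 difference, and the test reuses the day 10 libraries, which favours finding such a change. The values are the day 10 log2 fold change minus the day 6 one, and their causes were not tested. These calls share the dependence on library pairs given above: the test calls 3604 genes without replicate 1, 1 without replicate 2 and 0 without replicate 3.

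Heart genes changed upward, with Tnnt2 at 3.78, Myh7 at 3.75, Myocd at 3.58, Nkx2-5 at 3.54, Myh6 at 3.47, Mef2c at 2.88 and Ryr2 at 2.25. Other transcription factors that changed upward were Vgll2 at 5.99, Snai2 at 2.39, Sox21 at 2.25, Sox9 at 2.06, Egr1 at 1.82 and Prrx2 at 1.65. The remaining upward changes off chromosome 8 were Grb10 at 3.87, Col6a2 at 2.14, Cdkn1c at 1.89, Jag1 at 1.24 and Gli1 at 1.04.

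Pluripotency and streak genes changed downward, with Mixl1 at -3.11, Lefty2 at -2.90, Prdm14 at -2.88, Tdgf1 at -2.17, Eomes at -2.08, Dnmt3b at -1.84 and Zic2 at -1.37. So did Oasl2 at -4.67, Mymx at -4.34, Ubash3a at -3.60, Wnt8a at -2.25, Irf1 at -1.78 and Fzd10 at -1.29. On chromosome 8 the changes were 1.6 for Cbfa2t3 and 1.49 for Crnde, and -1.71 for Psmb10, -1.56 for Slc5a5 and -0.59 for Mcm5.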

How the results depend on the processing

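The number of calls changed between alternatives and their signs did not. Each of the 585 calls kept its sign in every alternative that tested it, and no named gene changed sign in any. Every call already had the same direction in each pair, and the alternatives reuse these libraries. A change of sign was therefore hardly possible, and the kept signs are no further support for the calls. Of the 585, 571 were tested with at least 1 CPM, 577 with counts halved, 584 without the pair of replicate 2 or of replicate 3, and all 585 in the other alternatives. The counts were 310 higher and 275 lower in all. They were 329 and 302 with RLE scaling, and stayed within 1.5 times with Rn45s left out, scaling without chromosome 8, counts halved and dispersion not robust, and with at least 1 CPM. With no filter on low counts 3 genes were higher on chromosome 8 and 190 lower off it, and the other counts stayed within 1.5 times.

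The replicate block changed calls. With no replicate block the counts were 442 higher and 475 lower in all, 439 and 239 off chromosome 8, and 3 and 236 on it. DESeq2 with the block called 1379 higher and 1294 lower, 1365 and 908 off chromosome 8, and 14 and 386 on it, with 629 adjusted p not given. A fit of all 36 libraries with no block called 38 higher and 250 lower, 38 and 212 off chromosome 8, and 0 and 38 on it (2071 at an unadjusted p below 0.05), so the share of calls that were higher was 13.2%, against 53% with the 6 libraries. In it 4 of 24 cardiac and smooth muscle genes and 0 of 17 heart transcription factors were higher. The endothelial, hedgehog, Notch, immediate early and Hox6 to Hox13 lists had no call. Of 26 naive pluripotency genes 16 were lower (median -2.69). Of the 83 named genes, 59 passed with the 6 libraries and not in this fit. The fit of 18 libraries with the replicate block within each day called 311 higher and 422 lower, 310 and 283 off chromosome 8, and 1 and 139 on it, with a higher share of 42.4%. The median of all genes moved by at most 0.04 between alternatives.

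Leaving out a pair, the counts ran over 0 to 2114 higher and 0 to 2214 lower in all, 0 to 2082 and 0 to 1817 off chromosome 8, and 0 to 32 and 0 to 397 on it, highest without replicate 1. Single libraries were left out with no replicate block. Without mCaPS replicate 1, 63 were higher and 17 lower, 63 and 6 off chromosome 8, and 0 and 11 on it. Without mCaPS replicate 2, 7 were higher and 0 lower, all 7 off chromosome 8, and 0 and 0 passed on it. Without mCaPS replicate 3, 1 was higher and 0 were lower, the 1 off chromosome 8. Without labelled KO replicate 1, 1962 were higher and 2163 lower, 1940 and 1775 off chromosome 8, and 22 and 388 on it. Without labelled KO replicate 2, 171 and 143 passed, 169 and 42 off chromosome 8, and 2 and 101 on it. Without labelled KO replicate 3, 198 and 186 passed, 198 and 53 off chromosome 8, and 0 and 133 on it. The causes of these changes were not tested. The change of the difference from day 6 to day 10 passed for 306 genes, 300 with no replicate block, and 0 to 3604 when a replicate was left out.

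With 3 pairs and 2 residual degrees of freedom the number of genes near the threshold is large: 4323 genes had an unadjusted p below 0.05, and 585 passed the adjustment. Differences in genes of a few CPM, such as the later Hox genes, rest on few reads per library.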

Other observations

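Of the 10 lowest genes off chromosome 8 by the naming rule, several belong to no list above. Hoxd10 (-4.07) also passed and was lower than all 10, but averaged 1.85 CPM in libraries labelled KO, under the limit of 2 CPM. Mymx, a small membrane protein gene needed for fusion of skeletal muscle cells, had 0.0438, 0.203 and 0.342 CPM in mCaPS against 0.157, 2.73 and 7.27 CPM in libraries labelled KO (-3.76 ± 0.54, SE, adjusted p = 0.0381, edgeR). The groups overlap in Mymx because labelled KO replicate 1 is low, and it did not pass with no replicate block (adjusted p = 0.109). Nkx1-2, a homeobox gene of the caudal epiblast, had 0.438, 0.863 and 0.537 CPM in mCaPS against 4.21, 5.02 and 10.3 CPM in libraries labelled KO (-3.34 ± 0.42, SE). Ubash3a, known as a regulator of T cell receptor signalling, had 0.285, 0.482 and 0.195 CPM in mCaPS against 1.20, 3.78 and 4.73 CPM in libraries labelled KO (-3.17 ± 0.56, SE). Nkx1-2 and Ubash3a were separated between the groups, at levels of a few CPM.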
